A study of Mus musculus with 3 samples.

Results

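Red blood cells were taken from single-cell RNA-seq of cryopreserved mouse fetal ovarian somatic cells (FOSCs) as barcodes chosen by the measured level of an alpha-globin transcript, Hba-a1, which had to make up at least 5% of all unique molecular identifiers (UMIs, each counting 1 captured transcript molecule). Of 28971 kept cells in 3 lots, 79 met this rule, 20 in lot 26, 37 in lot 29 and 22 in lot 30. Kept cells had 200 to 9000 detected genes and at most 10% mitochondrial UMIs. The 3 lots had 1 condition, ovaries of E12.5 embryos of CD1 mice (Charles River strain code 022), each lot from the litters of 10 pregnant females pooled together. The ovaries were separated from the mesonephros and trypsinised, germ cells and endothelial cells were depleted with magnetic SSEA1 and CD31 antibodies, and the flow-through was frozen, thawed and run on 10X Genomics 3′ chemistry. No antibody in this depletion was directed at red cells. There is 1 library per lot, so the lots are the only replicates (n = 3), and cells within a lot share that library. The p-values below measure the spread between these pools.

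Red cells of the mouse embryo arise in successive waves. Primitive erythroblasts form in the yolk sac, enter the blood while still nucleated and carry embryonic haemoglobin, whose chains come from Hba-x (zeta), Hbb-y (epsilon-y) and Hbb-bh1 (beta-h1) beside the alpha chain. Definitive red cells, made later in the fetal liver, carry alpha chains with the adult beta chains from Hbb-bs and Hbb-bt, and lose their nucleus before or as they enter the blood. As they mature, red cells make haem, rebuild the membrane skeleton, and clear mitochondria, ribosomes and most transcripts other than globin.

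The globin genes lie in a pair of clusters (GRCm38, GENCODE M21). Hba-x (chr11:32276400-32278116), Hba-a1 (chr11:32283511-32284465) and Hba-a2 (chr11:32296489-32297298) are on the plus strand of chromosome 11. Hbb-y (chr7:103851749-103853216), Hbb-bh1 (chr7:103841637-103843164), Hbb-bs (chr7:103826534-103828096) and Hbb-bt (chr7:103812524-103813996) are on the minus strand of chromosome 7. The promoters of 4 of them are shown, an adult and an embryonic gene from each cluster. Hba-a1 is the gene that chose all members, Hbb-bs and Hbb-y are among the beta-type genes used below to split them, and Hba-x is the embryonic gene that neither rule used. Each sequence is the 250 bases before the RefSeq transcript start (GRCm38.p6), 5′ to 3′ in the direction of the gene. GENCODE has gene models that begin farther upstream than the RefSeq start, so the windows overlap those models in part. Capitals mark the box CACCC on either strand and the box CCAAT on either strand. They also mark the GATA motif on either strand, spelled AGATAA in some windows and TGATAA in others. The last marked element is a TATA-type box on the strand of the gene, searched for in the spelling TATAAA, and likewise in the spelling TATAAG and finally in the spelling CATAAA.
Hba-a1 (chr11:32283422-32283671, plus strand): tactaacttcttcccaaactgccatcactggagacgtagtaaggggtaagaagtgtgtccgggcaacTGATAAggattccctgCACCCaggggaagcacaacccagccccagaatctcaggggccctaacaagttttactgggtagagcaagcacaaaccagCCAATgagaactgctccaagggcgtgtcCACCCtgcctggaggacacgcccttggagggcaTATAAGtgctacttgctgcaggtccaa
Hbb-bs (chr7:103827929-103828178, minus strand): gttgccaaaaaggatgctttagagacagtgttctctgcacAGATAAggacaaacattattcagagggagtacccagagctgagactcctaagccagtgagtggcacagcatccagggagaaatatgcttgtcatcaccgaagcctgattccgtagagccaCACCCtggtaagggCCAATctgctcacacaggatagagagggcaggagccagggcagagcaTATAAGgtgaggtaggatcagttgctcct
Hba-x (chr11:32276350-32276599, plus strand): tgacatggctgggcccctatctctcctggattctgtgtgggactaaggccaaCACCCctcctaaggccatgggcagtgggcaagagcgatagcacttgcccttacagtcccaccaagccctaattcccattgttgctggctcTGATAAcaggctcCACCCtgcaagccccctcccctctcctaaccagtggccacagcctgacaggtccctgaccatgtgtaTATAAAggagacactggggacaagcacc
Hbb-y (chr7:103853208-103853457, minus strand): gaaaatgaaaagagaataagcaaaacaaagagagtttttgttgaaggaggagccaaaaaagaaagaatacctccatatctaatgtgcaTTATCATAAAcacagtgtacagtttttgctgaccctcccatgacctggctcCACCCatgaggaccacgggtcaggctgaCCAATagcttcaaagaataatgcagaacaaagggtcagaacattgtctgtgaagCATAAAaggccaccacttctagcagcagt
All 4 windows held the CACCC box, at least 1 GATA motif and at least 1 TATA-type box, the one nearest the start beginning 27 bases before the start in Hba-a1, 29 in Hbb-bs and Hbb-y, and 28 in Hba-x. A CCAAT was found 88 bases before the start of Hba-a1, 76 before Hbb-bs and 83 before Hbb-y, and not in the letters of the Hba-x window. The GATA motif of Hbb-y (162 bases before the start, on the opposite strand) overlapped a CATAAA. Over all 32851 promoter windows of this length, the CACCC box was found in 52.0% of them. The CCAAT box was found in 33.8%, the GATA motif in 16.6% and a TATA-type box in 16.2%. These are matches of letters and not measured binding sites. The window of Hbb-bt was searched in the same way and is not printed. It held no GATA motif in the spellings used, though it held the other marked elements.

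The tables held 87494974 to 141920060 UMIs per lot. Between any pair of tables, 20 to 30 barcodes were identical, and 1 member had a barcode also seen in another lot. Scrublet called 339 to 796 kept cells per lot doublets and none of the 79 members, so no member was removed as a doublet.

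Members were rare in every lot. They made up 0.206% of kept cells in lot 26 (95% exact binomial interval 0.126 to 0.318), 0.433% in lot 29 (0.305 to 0.596) and 0.205% in lot 30 (0.129 to 0.311), a mean of 0.281% ± 0.131 (SD, n = 3 lots). These intervals cover counting error only. With all members counted, lots 26 and 30 were nearly equal, and lot 29 had the highest share. Members under 2000 detected genes were 18 of 20, 35 of 37 and 14 of 22 in lots 26, 29 and 30. By these counts lot 29 was still the highest and lot 30 was the lowest. The near-equal shares of lots 26 and 30 thus rest on the members with more genes. Most of those carried markers of other cell types, as described below. With 1 library for each lot, no test between lots was made.

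Hba-a1 chose the members, so its level is a description. It ranged from 5.82% to 34.4% of the UMIs of a member. The members nearest the threshold had 5.82% (lot 30), 6.49% and 6.70% (both lot 29), and the kept cells just under it had 4.24% (lot 30), 3.01% and 1.82% (both lot 26) and 1.23% (lot 29). These 4 cells under the threshold had 2941 to 4668 detected genes and an embryonic share of beta-type globin of 84.6% to 95.8%. No barcode removed by the filter on genes and mitochondrial UMIs reached the threshold. Members had a median of 7490.5, 10452 and 12097 UMIs in lots 26, 29 and 30, against 11132, 8946 and 11595 in the other kept cells. Without globin UMIs the medians of members fell to 1324, 1608 and 2088. Members had a median of 688, 643 and 856 detected genes, against 3473, 2981 and 3538 in the other cells.

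The members fell into a pair of globin types with nothing between them. The share of embryonic chains, Hbb-y and Hbb-bh1, among the UMIs of Hbb-y, Hbb-bh1, Hbb-bs and Hbb-bt was 85.6% to 99.5% in 36 members and 0% to 2.33% in the other 43. The 36 are called embryonic-globin cells here and the 43 adult-globin cells. The number of embryonic-globin cells was 6 of 20 in lot 26 (30.0%, 95% exact interval 11.9 to 54.3), 26 of 37 in lot 29 (70.3%, 53.0 to 84.1) and 4 of 22 in lot 30 (18.2%, 5.19 to 40.3). Lot 29 was thus the only lot with more embryonic-globin than adult-globin cells. Over all UMIs of members, embryonic chains were 43.9%, 79.5% and 28.2% of beta-type globin in lots 26, 29 and 30, a mean of 50.5% ± 26.3 (SD, n = 3). Adult-globin cells alone numbered 14, 11 and 18.

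**Figure D1:**
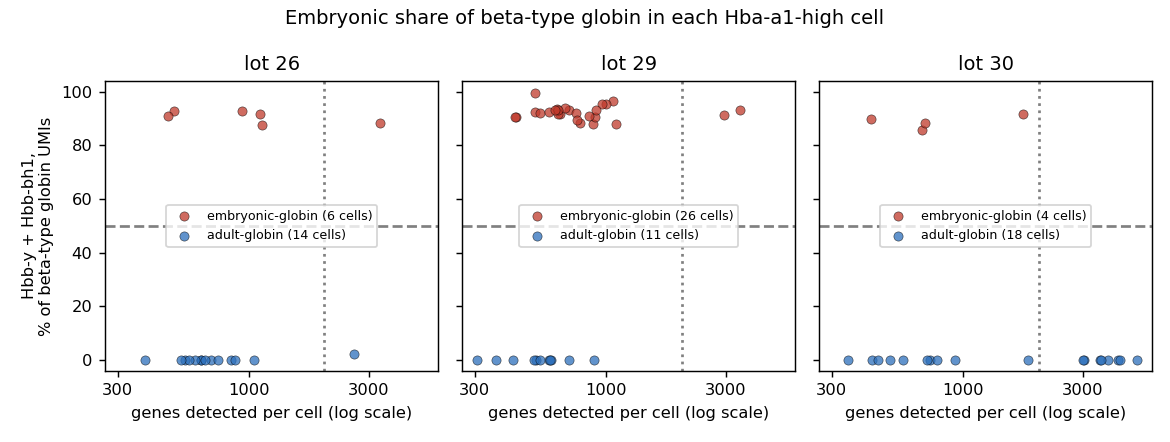
Each point is 1 Hba-a1-high cell, with the genes detected in it on the x axis (log scale) and the percent of its beta-type globin UMIs from Hbb-y and Hbb-bh1 on the y axis, in 1 panel per lot. The dashed line is the 50% split and the dotted line 2000 genes, the 36 embryonic-globin cells lie at 85.6% or more, the 43 adult-globin cells at 2.33% or less, and 8 of the 12 cells to the right of 2000 genes are in lot 30.

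Hba-x, which the split did not use, followed the same division. It had 26 or more UMIs in each of the 36 embryonic-globin cells, 0 in 42 of the 43 adult-globin cells and 1 in the remaining one. Hbb-y had 961 to 13262 UMIs per embryonic-globin cell and at most 3 per adult-globin cell. Because 12 members had 2000 or more genes (2631 to 4945, when no other member exceeded 1822), the values that follow are for the 67 members under 2000 genes, a limit chosen after this gap had been seen. Of these, 34 were adult-globin cells (13, 11 and 10 in lots 26, 29 and 30) and 33 embryonic-globin cells (5, 24 and 4).

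In adult-globin cells, Hbb-bs, an adult beta chain, was the most abundant transcript, with 47.3%, 40.3% and 45.3% of the summed UMIs in lots 26, 29 and 30. Hba-a1 followed with 24.2%, 29.4% and 29.5%, and Hbb-bt, the other adult beta chain, with 8.48%, 9.59% and 8.88%. The 3 lots were alike in this order. Hbb-y had 3, 11 and 6 UMIs in all these cells of a lot together, which is 0.00335% to 0.0183% of their UMIs, and Hbb-bh1 had none.

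In embryonic-globin cells, Hbb-y led with 56.7%, 54.2% and 50.1% of the summed UMIs. Hba-a1 had 14.0%, 14.8% and 15.6%, and Hba-x, the zeta chain, 7.37%, 10.2% and 10.5%. The adult beta chains were present at a lower level, Hbb-bs with 4.12%, 4.09% and 5.25% and Hbb-bt with 1.55%, 0.738% and 0.974%. Hbb-bh1, the other embryonic beta chain, had only 0.368%, 0.297% and 1.04%. In these sums Hbb-y was thus above every other globin in each lot, and the zeta chain above each adult beta chain. In lot 30, 1 cell of 30033 UMIs gave 4736 of the 6689 Hba-x UMIs and 617 of the 665 Hbb-bh1 UMIs. Other cells of lot 30 had more Hbb-bs than Hba-x (349 against 230 UMIs, and 1158 against 796). The order of the zeta chain and Hbb-bs there thus rests largely on that 1 cell.

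**Figure D2:**
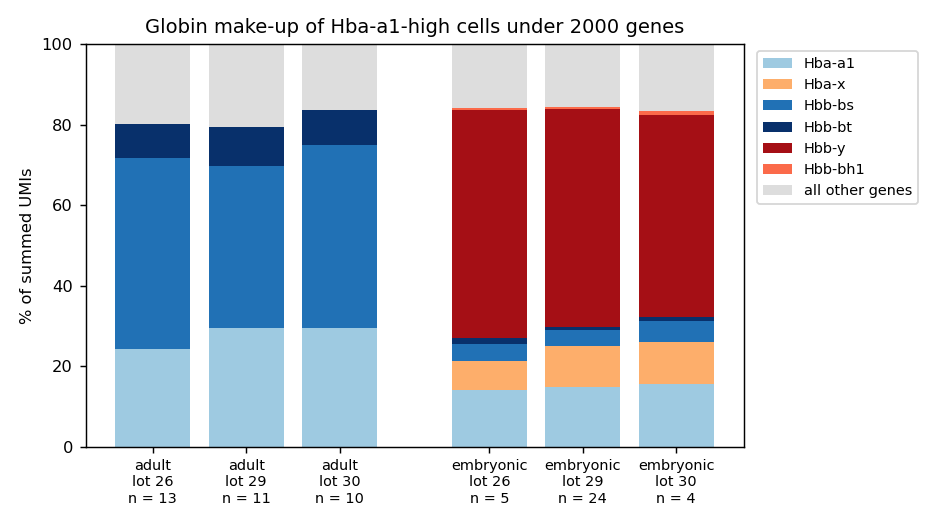
Stacked bars show the percent of summed UMIs taken by each globin gene in adult-globin (left) and embryonic-globin (right) cells under 2000 genes, 1 bar per lot, with n the number of cells. Hbb-bs takes 40.3% to 47.3% of the adult-globin bars and Hbb-y 50.1% to 56.7% of the embryonic-globin bars, where Hba-x is also seen.

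Within the embryonic-globin cells the chains varied. Hba-x made up 7.07% to 57.9% of the alpha-type UMIs of a cell, with medians of 32.7%, 39.0% and 23.9% in lots 26, 29 and 30. Hbb-bh1 made up 0.00975% to 4.08% of the beta-type UMIs of a cell, with a median over all 33 cells of 0.240%. In lot 29, over 24 embryonic-globin cells, the Hba-x share and the Hbb-bh1 share had a Spearman rho of 0.34 and a Pearson r of 0.38, given as a description since the cells share 1 library. The UMIs of alpha-type chains per beta-type UMI were 0.340, 0.420 and 0.454 in embryonic-globin cells and 0.434, 0.590 and 0.544 in adult-globin cells of lots 26, 29 and 30. Adult-globin cells were the higher in each lot, though the ranges over cells overlapped (0.348 to 0.717 against 0.257 to 0.601).

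Hbb-bt made up 15.2%, 19.2% and 16.4% of the adult beta-chain UMIs in adult-globin cells and 27.4%, 15.3% and 15.7% in embryonic-globin cells of lots 26, 29 and 30. The theta-globin genes Hbq1a and Hbq1b had 9 and 68 UMIs in all members together. Hba-a2, the near-identical copy of Hba-a1, had at most 3 UMIs in any member. Of the 616 distinct windows of 50 bases in the annotated transcripts of Hba-a2, 550 also occurred in those of Hba-a1, and whether reads of one were counted to the other or lost was not tested. Hbb-bs and Hbb-bt shared 381 such windows, of 716 and 654, so the split between them is uncertain in the same way. The authors kept only uniquely mapped reads. The Hba-x share of alpha-type UMIs and the alpha-type UMIs per beta-type UMI given above carry the same uncertainty.

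Embryonic-globin cells held more RNA by UMIs. Under 2000 genes, their median was 13770, 12294 and 14056 UMIs in lots 26, 29 and 30, against 7226, 5680 and 8753 in adult-globin cells. Outside globin, the medians were 2016, 1720 and 1534 against 1130, 1179 and 1270. Embryonic-globin cells were the higher by median in all 3 lots, with overlapping ranges over cells (766 to 6733 non-globin UMIs against 563 to 3388).

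Globin UMIs were also found in the other kept cells. Hba-a1 had at least 1 UMI in 25.4% of other kept cells in lot 26 (95% exact interval 24.5 to 26.3), 32.0% in lot 29 (31.0 to 33.0) and 28.1% in lot 30 (27.2 to 28.9), at median depths of 11132, 8946 and 11595 UMIs. Most of these cells had a single UMI, 2005 of 2462, 2129 of 2725 and 2424 of 3000. Embryonic chains made up 45.5%, 74.9% and 45.9% of the beta-type UMIs of all other kept cells, with or without Hba-a1. This leaves out the 8, 3 and 2 cells with 20 or more Hba-a1 UMIs. In the members, the same share was 43.9%, 79.5% and 28.2%. Lot 29 was the highest in both, and lot 30 differed most between them. Cells with 1 or a few globin UMIs were read as background of the libraries and not as red cells.

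The 12 members with 2000 or more genes were unevenly spread, with 2 in lot 26 (1 adult-globin, 1 embryonic-globin), 2 in lot 29 (both embryonic-globin) and 8 in lot 30 (all adult-globin). They carried 35.2%, 25.2% and 80.8% of the non-globin UMIs of members in lots 26, 29 and 30. Their summed UMIs of 8 pre-granulosa markers had a median of 41.5 per cell, against 1 in the members under 2000 genes and 20 in the other kept cells. Of the 8 in lot 30, 6 had 36 to 67 UMIs of the pre-granulosa list, and the other two had 34 and 37 UMIs of the stromal list, 1 of them with 19 UMIs of Upk3b, an epithelial marker. In lot 29, 1 cell had 22 UMIs of germ cell markers, among them 5 of Ddx4, 6 of Dazl and 5 of Dppa3. In lot 26, the embryonic-globin cell had 47 UMIs of the pre-granulosa list.

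The adult-globin cell of lot 26 with 2631 genes stood apart from all of these. It had 37 UMIs of Hbb-bh1 and 0 of Hbb-y, the 2.33% given above, and no other adult-globin cell had more than 1 Hbb-bh1 UMI. It had 13 UMIs of endothelial markers, including 4 of Esam, 2 of Pecam1 and 2 of Cdh5, with 3 each of Cd34, Lmo2 and Klf1, and 5.31% mitochondrial UMIs. Pre-granulosa markers had 1 UMI in it, and stromal, epithelial and germ cell markers none. It was named after its values were seen.

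**Figure D3:**
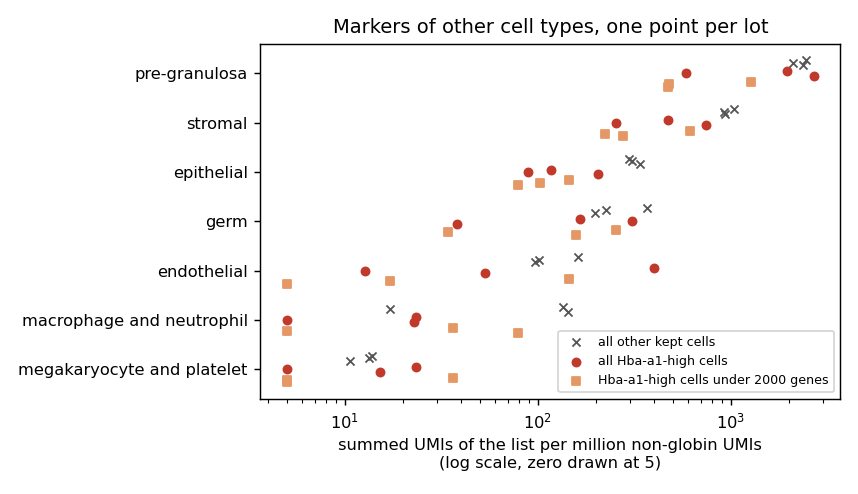
Summed UMIs of each marker list per 1000000 non-globin UMIs (log scale, x axis) in the other kept cells (crosses), all Hba-a1-high cells (circles) and those under 2000 genes (squares), with 1 point per lot. The pre-granulosa list reaches 2698 in all members of lot 30 and 475 in those under 2000 genes, against 2364 in the other cells of that lot.

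Over whole lists, markers of other cell types were at 1950, 587 and 2698 per 1000000 non-globin UMIs for pre-granulosa cells in all members of lots 26, 29 and 30, against 2461, 2089 and 2364 in the other kept cells, and at 1269, 478 and 475 in members under 2000 genes. Macrophage and neutrophil markers had 4 UMIs in all members together, with 7 of 11 genes at 0, among them Cd68, Csf1r and Tyrobp. Megakaryocyte and platelet markers had 3 UMIs, with 6 of 8 genes at 0, among them Ppbp and Gp9. Per 1000000 non-globin UMIs that list had 23.5, 0 and 15.2 against 13.9, 13.4 and 10.7 in the other kept cells, so the zeros show no lack. Endothelial markers had 25 UMIs (399, 12.8 and 53.4 against 162, 102 and 96.2). Mast and progenitor markers had 8 (94.0, 25.5 and 15.2 against 36.1, 17.4 and 13.8). Germ cell markers had 36 UMIs, Sertoli cell markers 18, epithelial markers 39 and stromal markers 137. None of the genes of these lists was called higher in members by edgeR or DESeq2, and none was higher at an unadjusted p under 0.05 in edgeR. Krt18 of the epithelial and Dcn of the stromal list were called lower, and neither passed in members under 2000 genes, where 5 of the 8 pre-granulosa genes were called lower. The 4 Y-linked genes together had 1 UMI in members (23.5, 0 and 0 per 1000000 non-globin UMIs against 6.39, 20.4 and 1.43), too few to show a lack.

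To describe what members share beyond globin, their summed counts were compared with those of all other kept cells in the same lot, 3 sums against 3, with all globin genes left out of the library sizes and of the test (edgeR's quasi-likelihood test, 2-sided, Benjamini-Hochberg adjustment). Levels below are UMIs per 1000000 non-globin UMIs (CPM) in lots 26, 29 and 30, and differences are log2 values, members minus other cells, ± SE. Of 14539 genes tested, 249 (1.71%) were higher and 15 (0.103%) lower in members. The median difference over all genes tested was -0.56 with TMM scaling and -0.36 with DESeq2 size factors, and single differences should be read against it. In the members under 2000 genes, 399 genes (2.75%) were higher and 448 (3.08%) lower of 14528, with a median of -1.89, and 245 of the 249 genes were among the 399. The lower genes numbered 41 with the lot as a block, 122 without lot 30 and 1 without lot 26 or without lot 29. The higher genes numbered 117 without lot 29, which holds the most members, and 432 without lot 30. For many genes named below the members of lot 30 were the lowest, and there members with 2000 or more genes held most of the non-globin UMIs. Their part in this order was not tested. Reads from overlapping or antisense genes are not told apart here.

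The label was checked against non-globin red cell markers, of which Ahsp and Epb42 were not analysed here. Alas2, Slc4a1, Klf1 and Hemgn were higher. Over all members Gata1, an erythroid transcription factor, did not pass with edgeR and passed with DESeq2. In members under 2000 genes it passed with edgeR.

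Haem synthesis genes rose along most of the pathway, 6 of 8 higher and none lower, with a median difference of 2.81 over the list against -0.56 over all genes. Alas2, the erythroid enzyme of the first step, had 3664, 3190 and 1677 CPM in members and 0.541, 0.563 and 0.390 in other cells, a difference of 12.497 ± 0.475 (adjusted p = 6.19e-09). The groups were far apart in every lot. Fech, ferrochelatase, which puts iron into the ring at the last step, had 1479.8, 1531 and 556 CPM against 19.97, 17.0 and 19.0 (5.98 ± 0.37, adjusted p = 5.01e-07). The enzymes between them differed by less, Urod by 3.07, Cpox by 2.68 and Alad by 2.10. Alad and Cpox did not pass without lot 29. Uros (adjusted p = 0.324) and Ppox (adjusted p = 0.890) had 7 and 4 UMIs in all members and did not pass.

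Of the iron and haem handling genes, 8 of 16 were higher and none lower, with a list median of 2.50. Fth1 and Ftl1, the heavy and light chains of the iron store ferritin, were the highest non-globin transcripts of members. Fth1 had 40143, 76969 and 15251 CPM in members and 2414, 2647 and 2539 in other cells (4.21 ± 0.55, adjusted p = 0.000497). Ftl1 had 20647, 29910 and 9139 against 1696, 1937 and 1949.8 (3.48 ± 0.44, adjusted p = 0.000360). Lot 29 was the highest for both, and the cause of this order was not tested. Slc25a37, mitoferrin, which carries iron into mitochondria, differed by 7.06 ± 0.33, and Glrx5, which serves iron-sulfur cluster assembly, by 3.47 ± 0.34. Blvrb, a biliverdin reductase, rose from 95.9, 85.6 and 92.0 CPM in other cells to 5285, 5142 and 1654 (5.49 ± 0.44). Ncoa4, the receptor that delivers ferritin for breakdown, differed by 3.59, Slc48a1, a haem transporter, by 3.85, and Abcb10, a mitochondrial transporter, by 2.96. Abcb10 did not pass without lot 26 or without lot 29. Tfrc, the transferrin receptor through which red cell precursors take up iron, had 188, 179 and 30.5 CPM against 41.9, 33.1 and 37.4 (1.55 ± 0.49, adjusted p = 0.192), and 2.23 (adjusted p = 0.00769) in the members under 2000 genes. Hmox1, which breaks down haem, did not pass (adjusted p = 0.157).

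Membrane and skeleton genes gave the highest share of calls among the red cell gene lists, 14 of 16 tested, all higher, with a list median of 6.56. Slc4a1, the band 3 anion exchanger, had 2184, 1416 and 366 CPM against 0.223, 0.115 and 0.0921 (13.07 ± 0.67, adjusted p = 1.01e-07). Kel, which carries the Kell antigen, differed by 13.22 ± 0.84, and Xk, its partner in the membrane, by 6.61 ± 0.62. Sptb, the beta chain of spectrin, differed by 5.77, and Rhd, an Rh family protein, by 10.38. Ermap, Add2, Dmtn, Ank1, Tmod1, Icam4 and Slc2a1 also passed, with differences of 10.26 down to 2.30. Ank1 did not pass without lot 29, Icam4 did not pass without lot 26 or without lot 29, and Slc2a1, a glucose transporter, did not pass without either of them or with the threshold at 2% or 10%. Gypc (adjusted p = 0.0889) did not pass, and Aqp1, a water channel, had no UMI in members.

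Erythroid transcription factors were at low counts, 146 UMIs in all members over 13 genes, and 6 of 13 passed, all higher. Tal1, which acts in a complex with Lmo2 and GATA factors, had 141, 408 and 61.0 CPM in members and 0.692, 0.953 and 0.510 in other cells (8.19 ± 0.67, adjusted p = 7.38e-06). Klf1, a zinc finger factor that binds CACCC boxes and activates adult beta-globin, had 9, 6 and 2 UMIs (7.37 ± 0.78, adjusted p = 8.34e-05). Nfe2 differed by 6.33, Gfi1b by 6.77, Lyl1 by 5.35 and Lmo2 by 3.69, where Gfi1b and Lyl1 rest on 6 and 7 UMIs. Gfi1b, Lyl1 and Lmo2 did not pass without lot 29, and Lyl1 and Lmo2 did not pass without lot 26, nor Lmo2 with the threshold at 2%. Gata1 had 0, 2 and 1 UMIs (3.34 ± 1.02, adjusted p = 0.177) and Zfpm1, its cofactor, 6, 7 and 2 (1.74, adjusted p = 0.212). In members under 2000 genes both passed with edgeR, Gata1 at 4.44 (adjusted p = 0.0277) and Zfpm1 at 2.08 (adjusted p = 0.0330). Gata1 again rested on 0, 2 and 1 UMIs there. Bcl11a, which silences embryonic globin genes, and Myb, a factor of early precursors, had no UMI in members. A count of 0 in 252144 non-globin UMIs allows a level of up to 11.9 CPM (3 counts), and the other cells had 8.76 to 9.66 CPM of Bcl11a and 1.55 to 1.82 CPM of Myb, so no difference was detectable at this depth.

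Epor, the erythropoietin receptor, had 1, 6 and 1 UMIs in members and 0.708, 0.735 and 0.815 CPM in other cells (5.50 ± 0.86, adjusted p = 0.00235), and did not pass without lot 29. Bcl2l1, an anti-apoptotic gene downstream of this receptor, had 141, 255 and 160 CPM against 21.0, 19.5 and 20.9 (3.24 ± 0.30, adjusted p = 2.95e-05). Pim1, a kinase gene, differed by 3.08 ± 0.55 and did not pass without lot 26 or without lot 29. Kit, the receptor of early precursors, had 3 UMIs in all members (-0.41 ± 1.05, adjusted p = 0.847). Thus 3 of these 4 genes rose.

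Genes of terminal maturation and organelle clearance were higher in 12 of 14 tested, with a list median of 4.18. Mkrn1, a ubiquitin ligase gene, had 4416, 3101 and 2142 CPM in members and 66.4, 66.2 and 68.9 in other cells (5.58 ± 0.32, adjusted p = 2.61e-07). Bnip3l, the NIX receptor that marks mitochondria for removal, had 1574, 1735 and 739 against 121, 133 and 124 (3.43 ± 0.32, adjusted p = 2.94e-05). Fam46c differed by 7.95, Xpo7, a nuclear exporter, by 3.86, Ube2o, which tags ribosomal proteins for breakdown, by 3.68, Ube2l6 by 4.50, Map1lc3b, an autophagosome protein, by 2.28 and Rnf10 by 2.82. Trim10 and Trim58, ubiquitin ligase genes of red cells, differed by 11.42 and 8.33, the second on 5 UMIs, Tspo2 by 11.79 and Hemgn by 10.08. Ulk1 (adjusted p = 0.809) and Fbxo7 (adjusted p = 0.253) did not pass. Of 7 transcripts of the mitochondrial genome tested, edgeR and DESeq2 called 0, and 0 had an unadjusted p under 0.05 (list median -0.14).

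Of 9 genes for gas transport and redox defence tested, 6 were higher. Car2, carbonic anhydrase 2, which turns carbon dioxide into bicarbonate, had 5919, 4543 and 1585 CPM in members and 8.08, 7.83 and 6.66 in other cells (9.06 ± 0.52, adjusted p = 2.61e-07). Bpgm, which makes the 2,3-bisphosphoglycerate that lowers the oxygen affinity of haemoglobin, had 3265, 3535 and 1547 against 16.9, 17.3 and 16.8 (7.38 ± 0.40, adjusted p = 1.7e-07). Prdx2 and Gpx1, which remove peroxides, differed by 3.48 ± 0.40 and 5.16 ± 0.52 and were among the 10 highest non-globin transcripts. Gclm, of glutathione synthesis, differed by 4.54 and Cat, catalase, by 2.40, the second not passing without lot 29. Sod1 (adjusted p = 0.283) and Gsr (adjusted p = 0.515) did not pass, and Car1 had no UMI in members.

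**Figure D4:**
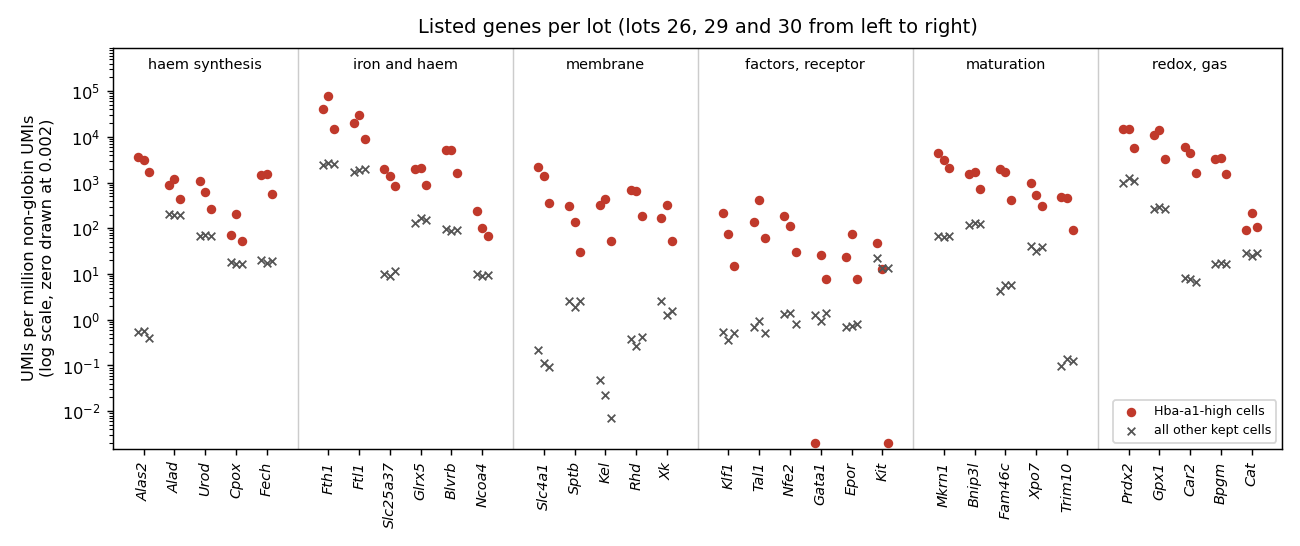
Levels of listed genes in UMIs per 1000000 non-globin UMIs (log scale) in Hba-a1-high cells (red circles) and all other kept cells (crosses), with lots 26, 29 and 30 from left to right for each gene. Alas2, Slc4a1, Kel and Trim10 are under 1 in the other cells and above 50 in the members of each lot, and Gata1 and Kit have a lot with no UMI.

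Among the 10 genes with the highest mean level outside globin, Fth1, Ftl1, Prdx2, Gpx1 and Nudt4 passed the test. Nudt4, a diphosphoinositol phosphatase gene, had 4557, 17073 and 1806 CPM in members and 100.1, 111 and 98.0 in other cells (6.37 ± 0.76, adjusted p = 0.000206), with lot 29 the highest. Rpl41, Tpt1, Rpsa, Rpl32 and Gm10076 had adjusted p of 0.297, 0.405, 0.355, 0.705 and 0.455. The called genes with the largest differences included Hsd3b6, Kel, Slc4a1, Alas2, Tspo2, Grap2, Trim10 and Pdzk1ip1, at 13.34 down to 10.90. Of these, Hsd3b6, Grap2 and Pdzk1ip1 are on none of the lists. Hsd3b6 had 634, 689 and 419 CPM in members and 19 UMIs in all 28892 other cells (13.34 ± 0.41, adjusted p = 1.44e-09). Grap2, an adaptor protein gene of blood cells, had 23 UMIs in members and 12 in other cells. Pdzk1ip1 had 540.2, 1085 and 114 CPM against 0.430, 0.310 and 0.142.

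Genes of the cell cycle mostly did not pass. edgeR and DESeq2 called 0 of 11 S phase genes, of which 4 were lower at an unadjusted p under 0.05 in edgeR, with a list median of -0.94. In members under 2000 genes, edgeR called Mcm3 and Mcm4, of the replicative helicase, lower, and both had no UMI there. Of 10 genes of G2 and M phase, Ube2c, which serves the anaphase-promoting complex, was the 1 called, with 1057, 459 and 511 CPM in members and 219.7, 277 and 213 in other cells (1.43 ± 0.27, adjusted p = 0.0106), and it did not pass without lot 26 or without lot 29. Mki67, the proliferation marker, had 235, 166 and 76.2 CPM against 121, 95.4 and 93.3 (0.42 ± 0.35, adjusted p = 0.661). edgeR called 0 of 6 genes for histone variants and chromatin condensation (list median -0.998), 3 of them being lower at an unadjusted p under 0.05. DESeq2 called the 3 genes H1f0, Hmgb1 and Lmnb1 lower. In members under 2000 genes the list median was -1.64 against -1.89 over all genes tested. The second median includes genes with few or no UMIs in members, so it does not place the list against genes at like levels. In members under 2000 genes edgeR called 3 of the 6 lower. They were H1f0, a linker histone gene (-1.75, adjusted p = 0.0444), and Hmgb1 and Hmgb2, of the high mobility group of chromatin proteins (-1.70, adjusted p = 0.00256, and -1.58, adjusted p = 0.0178).

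The 15 lower genes included 5 of the 61 clustered histone genes tested. Hist1h1b, a linker histone gene, had 117, 140.4 and 145 CPM in members and 491, 711 and 555 in other cells (-2.05 ± 0.31, adjusted p = 0.00157). Hist2h2ac, Hist1h2ae, Hist1h4d and Hist1h1e differed by -1.97, -1.85, -1.81 and -1.45. The median over all 61 was -1.84. DESeq2 called 6 of the 61 lower and 3 higher. In members under 2000 genes edgeR called Hist1h1b, Hist1h2ae and Hist1h1e lower, while Hist2h2ac and Hist1h4d did not pass. The 3 others called there, Hist1h1c, Hist1h2al and Hist1h2bc, were higher, by 1.70, 1.79 and 1.68 (adjusted p = 0.0110, 0.0210 and 0.0236). Igfbp2, a binding protein of insulin-like growth factors, differed by -1.90 and Dcn, decorin of the stromal matrix, by -1.92, the second on 8 member UMIs. Hnrnpa1 and Pnn, which act in splicing, differed by -1.76 and -1.61, and Manf, of the endoplasmic reticulum, by -1.37. All 10 of these were lower in members in each of the 3 lots, but Hist1h1b was the only one of them that passed both without lot 26 and without lot 29.

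The next comparison sets adult-globin against embryonic-globin members, both under 2000 genes. A test was planned only for 10 or more cells of each type in every lot, and lots 26 and 30 had 6 and 4 embryonic-globin cells in all, so values are given with no test. In lot 30, 1 embryonic-globin cell held 6733 of the 10566 non-globin UMIs of that type. The embryonic-globin levels of lot 30 below therefore rest largely on that cell. With 3 lots against 3, an exact permutation test of 1 gene could not go below 0.1. Of 460 genes with at least 30 UMIs over these cells, the lots of the types did not overlap for 198, of which 91 (19.8%) were higher in adult-globin and 107 (23.3%) in embryonic-globin cells. When the 12 members with 2000 or more genes were included, 84 of the 198 still did not overlap and none reversed.

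Among the genes higher in embryonic-globin cells, Nudt4 had 12114, 26725 and 20159 CPM in lots 26, 29 and 30 against 505, 1044 and 885 in adult-globin cells, 24.2-fold by the means. The other kept cells had 100.1, 111 and 98.0. Hsd3b6, named for a 3-beta-hydroxysteroid dehydrogenase, had 2361, 1040.4 and 4543 CPM against 168, 321 and 0. Pdzk1ip1, a small membrane protein gene, had 1539.9, 1604 and 1419.7 against 56.1, 241 and 0. Cd59a, which protects cells from complement, had 2156, 1647 and 1514 against 224, 401 and 0. Acp5, an acid phosphatase gene, and Fam174b had no UMI in adult-globin cells of any lot and 44 and 38 UMIs in embryonic-globin cells, at least 8.61-fold and 9.50-fold higher when the adult-globin cells are set to 3 counts over the group.

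Of 6 blood group and membrane genes with enough UMIs, 3 were higher in embryonic-globin cells, 1 in adult-globin cells and 2 overlapped. The shares over all 460 genes were 23.3% and 19.8%. Kel had 924, 629 and 473 CPM in embryonic-globin cells and 0, 80.3 and 136 in adult-globin cells, and Xk had 513, 499 and 379 against 56.1, 0 and 0. Ermap, of the Scianna blood group, was also higher in embryonic-globin cells. Slc4a1 and Rhd overlapped between the types. With all members included, Kel, Xk and Ermap also did not overlap.

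Adult-globin cells were higher for most genes of haem synthesis that could be compared, 3 of 5, with none the other way. Alas2 had 6559.8, 6502 and 6127 CPM against 3079.8, 3273 and 4164, Urod 2074, 1846 and 1021 against 308, 412 and 189, and Fech 2299, 3853 and 2247 against 1848, 1431 and 852. Of the iron genes, Slc25a37, Glrx5 and Blvrb were higher in adult-globin cells, while Fth1 was higher in embryonic-globin cells, with 80587, 110865 and 62370 CPM against 34425, 41824 and 41735. Ftl1 overlapped. Of 10 maturation genes, 4 were higher in adult-globin cells and none in embryonic-globin cells, Mkrn1 having 7569, 10677 and 10825 against 3490.4, 2254 and 2271. Bnip3l, Trim10 and Tspo2 were the other 3. With all members included, the genes of this paragraph that were higher in adult-globin cells overlapped between the types, and Fth1 did not.

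Of 7 gas transport and redox genes with enough UMIs, 3 were higher in adult-globin cells, 2 in embryonic-globin cells and 2 overlapped. Over all 460 genes the shares were 19.8% and 23.3%. Prdx2 (25062, 29140 and 22399 CPM against 13448, 16429 and 13155), Gpx1 and Car2 were higher in adult-globin cells. Gclm (3388, 2904 and 3123 CPM against 953, 1606 and 749) and Sod1 were higher in embryonic-globin cells. With all members included, Gclm and Sod1 did not overlap and the other 3 did.

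Cd24a, a surface glycoprotein gene, had 2579, 3773 and 3268 CPM in adult-globin cells and 719, 368 and 94.6 in embryonic-globin cells, and Ube2c 2299, 1846 and 1294 against 308, 130.05 and 379. Eif5, a translation initiation factor gene, had 3252, 4255 and 2587 against 308, 303 and 0. Tal1 had 0, 321 and 0 CPM in adult-globin cells and 411, 542 and 757 in embryonic-globin cells. With all members included, Tal1 overlapped between the types, and the other genes of this paragraph did not.

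**Figure D5:**
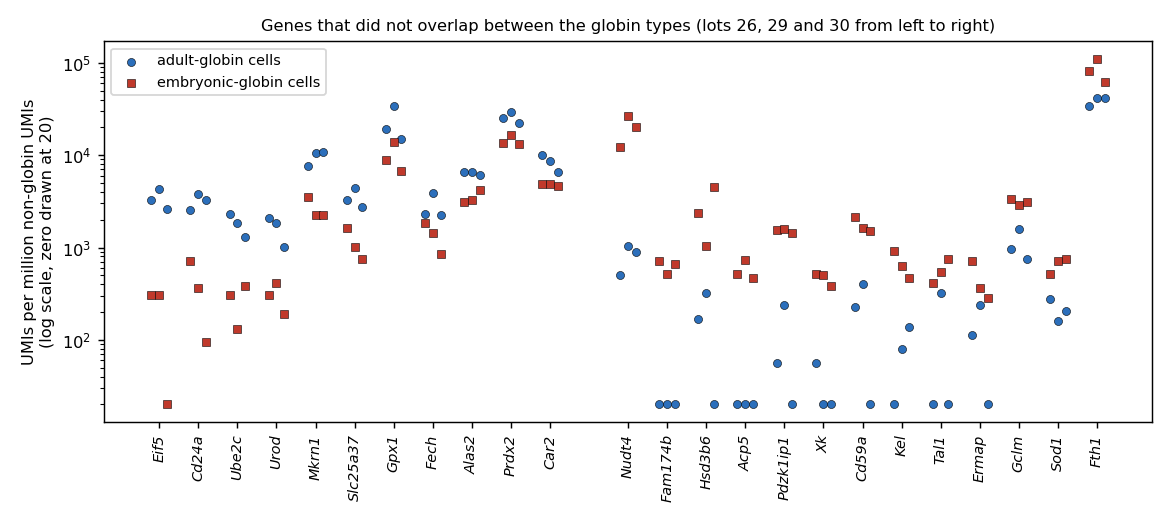
Genes described in the text whose lots did not overlap between the types, those higher in adult-globin cells on the left, in UMIs per 1000000 non-globin UMIs (log scale), with lots 26, 29 and 30 from left to right, adult-globin cells as blue circles and embryonic-globin cells as red squares. Nudt4 lies at 12114 to 26725 in embryonic-globin cells and at 505 to 1044 in adult-globin cells, and Cd24a at 94.6 to 719 and 2579 to 3773.

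Ribosomal protein transcripts were a smaller share of the non-globin UMIs of adult-globin cells, at 179805, 176046 and 169186 CPM in lots 26, 29 and 30, than of embryonic-globin cells, at 238271, 230921 and 293015, and the other kept cells had 277294, 275539 and 267840. Against all other kept cells, edgeR called 0 of 81 ribosomal protein genes for all members together (11 had an unadjusted p under 0.05, 7 of them lower), and DESeq2 called 3 higher. In members under 2000 genes edgeR called 26 of the 81 lower and 4 higher, when 3.08% and 2.75% of all genes tested were. The list median there was -0.67 against -1.89 over all genes tested, which include genes with few or no UMIs in members. With the other cells thinned to the UMIs of these members, the median over the 404 genes tested was 0.055. The summed list was lower in each lot, at 200457, 219255 and 220995 CPM in members under 2000 genes against the values of the other kept cells above. Rpl3 (-1.62, adjusted p = 0.000268) was among the lower, and Rpl41, Rplp0, Rps2 and Rpsa, at 0.92 to 1.17, were the higher. Of 76 ribosomal protein genes with enough UMIs, 41 were higher in embryonic-globin cells and none in adult-globin cells, and 9 of the 41 still did not overlap with all members included. Transcripts of the mitochondrial genome were higher in adult-globin cells within each lot but overlapped between lots, at 9363, 4335 and 21650 CPM in adult-globin and 4517, 2493 and 5111 in embryonic-globin cells, against 14404, 8772 and 13658 in the other cells. In lot 30 the adult-globin value exceeded that of the other cells, and 1 adult-globin cell there had 1822 genes and 2.25% mitochondrial UMIs when no other member under 2000 genes exceeded 0.371%.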

How the data were processed

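Whole-number UMI counts per gene and cell were deposited by the authors as 1 table per lot, with no normalization. Per the submitters' processing notes, reads were handled with UMI-tools, STAR 2.7, featureCounts 2.0.1 (Subread) and Seurat on GRCm38. The annotation and strand setting used for counting were not given in the sources used here. Cells with 200 to 9000 genes and at most 10% mitochondrial UMIs were kept, and those with Hba-a1 at 5% or more of their UMIs were the members. The members and gene lists were chosen with earlier results of these data known.

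UMIs were summed per lot over members and over all other kept cells, 6 sums in all. With 10 globin genes left out of library sizes and test, the sums were compared by edgeR 4.0.16 (R 4.3.3; filterByExpr, TMM, glmQLFit and glmQLFTest) at an adjusted p under 0.05. DESeq2 1.42.0, other scalings, filters and thresholds, thinning, a lot block, and each lot left out were alternatives. The steps were tested on simulated data. Members and other cells of a lot come from the same pool, so the lots pair the sums. Their deviations from the group means correlated at 0.27, 0.21 and 0.29 in lots 26, 29 and 30 over 1415 genes. The main design had no block. Doublets were scored with Scrublet in scanpy 1.11.5 (Python 3.11.15, expected rate 8%) and kept. Intervals are exact binomial (95%, scipy 1.17.1).

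Named genes were those of the erythroid, cell cycle, histone, Y-linked, ribosomal protein, mitochondrial and cell marker lists, the 10 highest non-globin genes of members, and the 10 called genes with the largest difference in each direction. Higher ones had to be higher in every lot with at least 5 member UMIs in each, and lower ones the same with at least 5 expected. Xist and the genes Ahsp, Epb42, Epb41, Flvcr1, Kmt5a and Tent5c were not analysed here. Some listed genes are not reported here, though the list counts include them. Adult-globin and embryonic-globin members were split at 50% embryonic beta-type UMIs, and genes with at least 30 UMIs were compared without a test. Promoter sequences are from RefSeq (GRCm38.p6).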

Additional observations from a re-analysis of the deposited data

How the results depend on the processing

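The share of members and the embryonic share of beta-type globin moved by less than 1 SD over the lots under every threshold, filter and doublet setting tried. Leaving out 1 lot gave 0.206% to 0.319% for the first and 36.1% to 61.7% for the second. The mean over lots of the median UMIs of members was 10013.2 and fell to 1673 without globin UMIs. The count of 249 higher genes became 613 with DESeq2, 115 with the other cells thinned to the UMIs of members (1264 genes tested), and 117 to 432 with 1 lot left out. The count of 15 lower genes became 84 at a threshold of 10%, 8 with DESeq2 size factors, 26 with total UMIs only, 42 with DESeq2, 8 with thinning, and 1 to 122 with 1 lot left out. With the lot as a replicate block, which pairs members and other cells, the lower genes numbered 41 and the higher 271. In members under 2000 genes, a choice made after seeing the data, 399 were higher and 448 lower, or 147 and 96 with thinning (404 genes tested). Thinning leaves fewer genes to test. The cause of the other changes was not tested.

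For the 71 named genes that were called, 1067 values were computed under the alternatives, of which none reversed, 1001 stayed past the threshold and 66 did not. Of these genes, 47 passed under every alternative that tested them. Without lot 29, 24 lost the call, without lot 26, 17, and without lot 30, 4. The planned test of adult-globin against embryonic-globin members, and with it its alternatives, the lot block among them, was left out by the minimum set for it, since lots 26 and 30 held fewer than 10 embryonic-globin cells. All 3 lots held both types, so a fit paired by lot could have been made and was not run. Depth limits the low genes: the members of a lot had 42573 to 131202 non-globin UMIs in all.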
